A study of Heliocidaris erythrogramma with 5 samples.

Results

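Blastocoelar immune-type cells were examined in whole-larva single-cell RNA-seq libraries of the sea urchin Heliocidaris erythrogramma, a species whose larvae live on egg reserves and do not feed. They were taken as cells with over 200 genes, under 10000 unique molecular identifiers (UMIs) and under 4000 genes that held a UMI of at least 2 of 4 markers and no UMI of Alx1. The markers were Astacin4, Irf4, Scl and a gene of a secreted immune response protein, which pools 5 gene models and is named here by the one with most UMIs, HER_40156.t1. The rule found 1080 members among 26740 kept cells, and the 25660 other kept cells were used for comparison. Members were chosen by the UMIs of the 4 markers and Alx1, so the values of these genes are given as a description without a test. Gene names are the sea urchin symbols of the deposited feature list, without their shared prefix, and features with the same symbol were pooled.

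The larvae were wild type, and 1 library stood for each of 36, 42, 48, 56 and 60 hours post-fertilization (hpf). No treatment, transgene or sort was used. Each library came from 1 preparation of larvae that were dissociated and fixed in methanol, so an age and its library cannot be told apart. The library labelled 56 hpf is called 54 hpf in the study's methods, and only the order of ages entered the tests.

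In sea urchin larvae, blastocoelar cells are non-skeletogenic mesoderm cells that leave the gut wall, spread through the body cavity as a network and take part in the larval immune response. They arise from the oral side of the secondary mesoderm, where Scl, GataC and Ese are expressed in feeding species, and pigment cells arise from the aboral side. Sea urchin immune cells are known for a diverse family of secreted immune response proteins, to which the HER_40156.t1 gene belongs, and for large families of scavenger receptors. Scl is the relative of TAL1, which works with GATA factors and LMO2 in vertebrate blood development, Irf4 is an interferon regulatory factor, and Astacin4 belongs to the astacin metalloproteases. Alx1 is the regulator of skeletogenic cells, which is why cells with its UMIs were left out.

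The libraries held 4194872 to 12147560 UMIs, and 41 barcodes were removed by the limits on genes and UMIs. Members were deeper than other cells in each of the 5 libraries. Their median UMIs per cell were 1387, 2070.5, 1533, 1102 and 1738.5 in order of age, against 1310, 1621.5, 1112, 805 and 989 in other cells. No doublet caller was run here, and doublets and free RNA were not removed. The libraries shared 71 barcodes between pairs, and no pair shared more than 12.

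The marker pair HER_40156.t1 gene and Astacin4 defined most members. Of 1080 members, 1049 (97.1%) held Astacin4, 996 (92.2%) held the HER_40156.t1 gene, 271 (25.1%) held Scl and only 25 (2.31%) held Irf4. That pair without another marker accounted for 800 members (74.1%), and 172 members (15.9%) held 3 or 4 markers. Irf4 was found in 6, 9, 1, 1 and 8 members in order of age, so the label rests hardly at all on that gene. The share of members with Scl was 53.2%, 44.3%, 26.3%, 22.7% and 16.7% in order of age. Members at 60 hpf were deeper than those at 36 hpf, at medians of 1738.5 and 1387 UMIs.

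In each library most UMIs of the HER_40156.t1 gene and of Astacin4 lay in the members, which were chosen by these UMIs. Members held 82.3%, 81.0%, 82.0%, 72.7% and 69.4% of the UMIs of the HER_40156.t1 gene in order of age. For Astacin4 the values were 78.7%, 74.3%, 76.8%, 67.6% and 60.5%. For Scl they were 61.4%, 49.8%, 34.9%, 36.7% and 56.4%, so most Scl UMIs lay outside the members at 42, 48 and 56 hpf. Irf4 had only 8, 12, 2, 2 and 11 UMIs in all kept cells. Counts per member were low, with a median of 1 UMI of the HER_40156.t1 gene and 2 UMIs of Astacin4, while single members reached 152 and 126 UMIs. In 271 members (25.1%) no marker exceeded 1 UMI. These cells are the members just inside the rule, and 3117 cells with a UMI of 1 marker lie just outside it. Another 10 cells met the marker rule and were left out for an Alx1 UMI. Of the 5868 UMIs of its 5 gene models, HER_40156.t1 itself gave 92.8%, and HER_45847.t1 gave 99.8% of the 10553 UMIs of Astacin4.

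By the rule, members made up 1.77%, 3.28%, 2.43%, 3.43% and 6.75% of kept cells in order of age. The 95% Clopper-Pearson intervals had lower bounds of 1.43%, 2.77%, 1.98%, 2.90% and 6.24% and upper bounds of 2.16%, 3.86%, 2.95%, 4.04% and 7.29%. They cover counting error only, and no test of the shares between ages was made. With every cell thinned to 500 UMIs the shares were 1.09%, 1.38%, 1.18%, 2.09% and 2.44%. Cells with at least 3 of the markers made up 0.546%, 1.03%, 0.392%, 0.585% and 0.658%, which gives no order of ages. The share that requires at least 2 UMIs of each of 2 markers was 0.979%, 1.69%, 1.15%, 1.58% and 2.36%.

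The share by the rule was not above its background in pigment cells, which should be a separate class. Cells with a UMI of at least 2 of the pigment markers Pks1, Fmo, Mif4 and Hox11/13c met the member rule in 12 of 352 (3.41%), 6 of 145 (4.14%), 7 of 244 (2.87%), 12 of 239 (5.02%) and 53 of 635 cells (8.35%) in order of age. These shares were higher than those in cells without 2 pigment markers at each age, which were 1.65%, 3.25%, 2.40%, 3.34% and 6.63%. Median depths at 60 hpf were 1178 UMIs in pigment marker cells and 1015 UMIs in the rest. The larger share of members at 60 hpf is therefore not read as a larger number of blastocoelar cells. A UMI of Astacin4 was found in 4.63%, 7.73%, 7.03%, 9.69% and 20.7% of all kept cells in order of age, and after thinning in 2.41%, 4.01%, 4.34%, 5.98% and 10.7%.

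More stringent marker counts were rarer in pigment marker cells than in the rest at 36 hpf, and not at the last ages. At least 2 UMIs of each of 2 markers were found in 0 of 352 pigment marker cells at 36 hpf. The 95% Clopper-Pearson interval of that share reaches 1.04%. Cells without 2 pigment markers met the requirement in 52 of 4962 (1.05%, interval from 0.784%), so the intervals overlap. At 60 hpf the same requirement was met by 15 of 635 pigment marker cells (2.36%) and 197 of 8337 others (2.36%). Neural marker cells (a UMI of at least 2 of Secrtag, Syt4 and Calml1) met the 2-marker rule in 24 of 347 (6.92%) at 56 hpf and in 95 of 861 at 60 hpf. Cells without 2 neural markers met it in 117 of 3759 (3.11%) and 511 of 8111 (6.30%), a lower share at both ages. At 36 hpf, at least 2 UMIs of each of 2 markers were found in 1 of 123 neural marker cells (0.813%). Cells without 2 neural markers held them in 51 of 5191 (0.982%), so the neural class was not separated there. The neural marker cells were also deeper, with medians of 1135 and 1681 UMIs at 56 and 60 hpf, against 790 and 976 UMIs in the rest. The part of mixed droplets or free RNA in these overlaps was not tested.

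**Figure D1:**
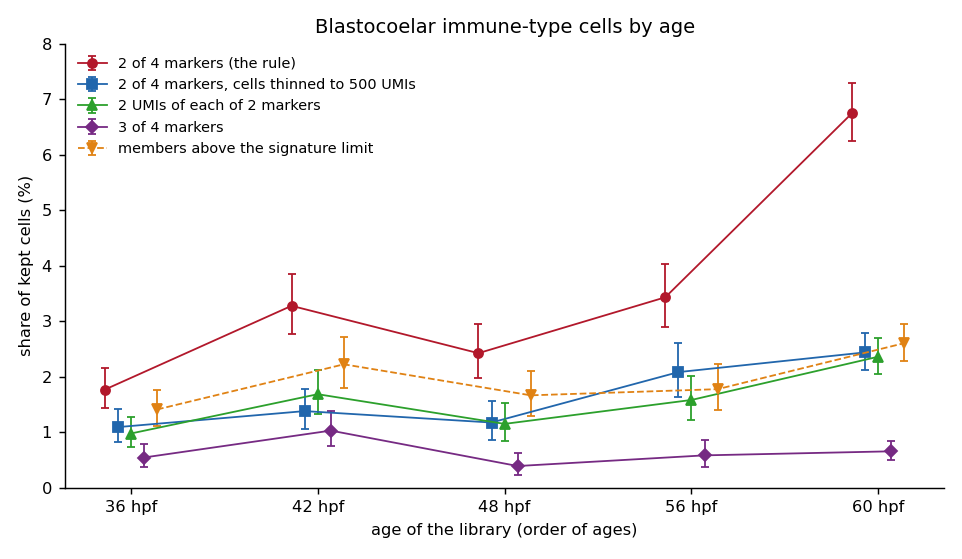
Share of kept cells (%, y axis) that met the member rule (also after thinning), its stricter forms, or the rule together with the signature limit described next, in the 5 libraries (x axis, in order of age), with 95% Clopper-Pearson intervals as error bars. The share by the rule ran from 1.77% to 6.75%, while cells with at least 3 markers stayed between 0.392% and 1.03%.

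A set of genes that the rule did not use gave a second view of the members. For each library, 50 genes were taken that were highest in members of the other 4 libraries, and a cell was called above the limit when its share of UMIs in those genes exceeded the 99th percentile of cells with no marker. Of the signature genes, 43 were shared by all 5 sets and 58 occurred in any. Members above the limit numbered 75 of 94 (79.8%) at 36 hpf, 95 of 140 (67.9%) at 42 hpf, 68 of 99 (68.7%) at 48 hpf, 73 of 141 (51.8%) at 56 hpf and 234 of 606 (38.6%) at 60 hpf. In all, 545 of 1080 members (50.5%) were above it. The other members did not pass this limit, which does not mean that they matched cells without markers. The 25th percentile of cells with 2 markers was 0.366% of UMIs at 36 hpf and 0.182% at 60 hpf. The 75th percentile of cells with no marker was 0.0703% and 0.166% at these ages.

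The number of markers graded this readout within each library. Members with 3 or 4 markers were above the limit in 96.6%, 95.5%, 93.8%, 87.5% and 83.1% in order of age. Members with 2 markers were above it in 72.3%, 55.2%, 63.9%, 44.4% and 33.8%, and cells with 1 marker in 16.3%, 18.2%, 9.12%, 9.29% and 6.91%. At 60 hpf, only 7 of 161 members with 1 UMI of each marker seen (4.35%) were above the limit, against 227 of 445 members with more (51.0%). Members above the limit made up 1.41%, 2.23%, 1.67%, 1.78% and 2.61% of all kept cells, a narrower span than that of all members. The signature genes were drawn from members at other ages, so a program that was specific to 1 age would not be counted.

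**Figure D2:**
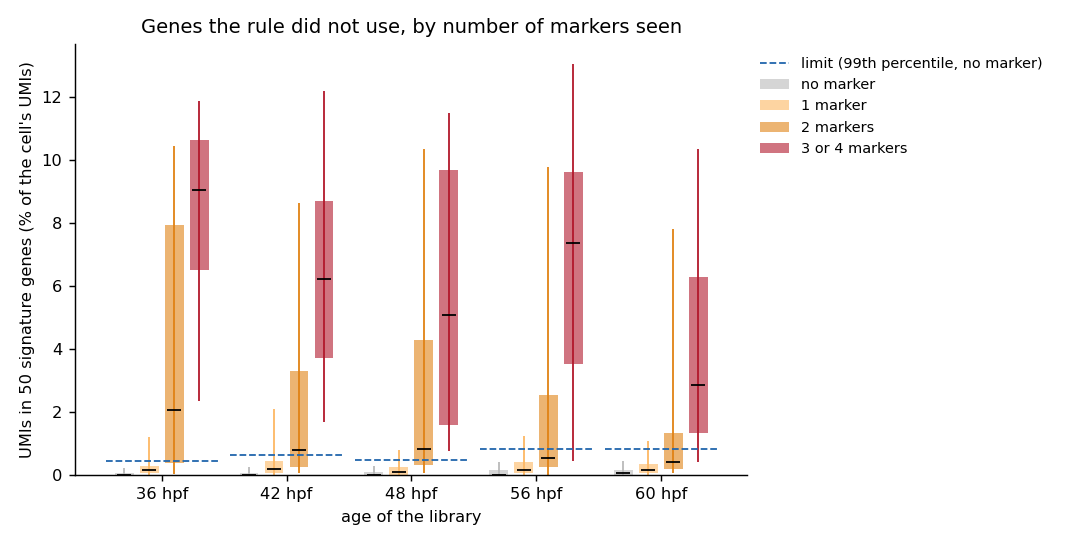
Share of each cell's UMIs in 50 signature genes chosen in the other 4 libraries (%, y axis) for cells with 0, 1, 2 and 3 or 4 markers in the 5 libraries (x axis). Boxes span the 25th to 75th percentile, black marks are medians, thin lines run from the 5th to the 95th percentile and dashed lines give the limit of each library. Cells with 3 or 4 markers lie mostly above the limit, in 83.1% to 96.6% of cells.

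The first comparison asked which genes were higher or lower in members than in other cells. UMIs were summed over members and over other cells of each library, and scaled so that each sum came to 1000000 (CPM). Of 10111 genes tested with edgeR's quasi-likelihood test with the library as a block, 672 were higher (6.65%) and 235 were lower (2.32%) at a Benjamini-Hochberg adjusted p under 0.05. The median log2 ratio of all tested genes was -0.07. Of the higher genes, 626 were higher in 5 of 5 libraries, 515 were at least 2-fold and 287 at least 4-fold higher. The lower genes included only 33 with at least a 2-fold difference, and their count was 129, 49, 62, 116 and 532 without the 36, 42, 48, 56 and 60 hpf library in turn. With members required to hold at least 3 markers, 671 genes were higher and 1383 lower, so the balance of the 2 directions depends on how strictly members are chosen. The 5 libraries have different ages, so the test measures whether a difference recurs over ages, and each of the values below comes from that test.

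Genes of the extracellular matrix and its remodelling gave the most UMIs among the genes with the highest ratios. A2col, a fibrillar collagen gene, was at 6063, 4155, 2190, 3128 and 1299 CPM in members in order of age, and at 46.6, 160.3, 41.0, 41.7 and 71.9 CPM in other cells. The fitted ratio was 45.7-fold (log2 5.51 ± 0.33 SE, adjusted p = 3.06e-08). A UMI of A2col was found in 513 members (47.5%) and in 927 other cells (3.61%). Mmp18/19L5, a matrix metalloproteinase gene, was at 2347, 886, 761, 1115 and 391 CPM in members and at 2.54 to 16.3 CPM in other cells. Its ratio was 88.1-fold (log2 6.46 ± 0.37, adjusted p = 1.98e-08), and 323 members (29.9%) held a UMI of it. Members with 1 UMI of each marker seen had 24.2 CPM of Mmp18/19L5 and the remaining members 923 CPM, so the level of this gene lay in the second group.

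Other secreted or matrix-related genes were rarer and just as restricted. Itih, related to the inter-alpha-trypsin inhibitor heavy chains that bind hyaluronan in vertebrates, was at 181, 116, 77.7, 91.3 and 97.0 CPM in members and at 0.383 to 3.52 CPM in other cells, a log2 ratio of 6.19 ± 0.42 (adjusted p = 1.03e-07). Adamts14L, a gene of the ADAMTS metalloproteases, was at 181, 136, 93.2, 111 and 42.1 CPM in members and at 1.00 to 3.14 CPM in other cells, a log2 ratio of 5.88 ± 0.32 (adjusted p = 1.28e-08). Wap/Ig/Ku/C345c, named for its protease inhibitor and immunoglobulin domains, was at 423, 142, 98.4, 135 and 45.9 CPM in members and at 0.725 to 7.53 CPM in other cells, a log2 ratio of 5.69 ± 0.53 (adjusted p = 2.20e-06). These 3 genes were picked for their high ratios, so the gap between their values in members and in other cells is a description. The members held 80.1% of the UMIs of Itih, 73.7% of those of Adamts14L and 71.7% of those of Wap/Ig/Ku/C345c.

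The highest ratio belonged to a tubulin gene. Atub4, an alpha tubulin, was at 174, 111, 36.2, 62.5 and 27.8 CPM in members, and the members held 124 of its 135 UMIs (91.9%). Only 8 of 25660 other cells had a UMI of it, so its fitted log2 ratio of 7.74 ± 0.43 (adjusted p = 1.76e-08) rests on few counts in other cells. Btub5, a beta tubulin, was at 392, 264, 93.2, 91.3 and 88.0 CPM in members and at 2.30 to 4.90 CPM in other cells, a log2 ratio of 5.40 ± 0.37 (adjusted p = 9.86e-08). A UMI of Atub4 was seen in 80 members (7.41%) and one of Btub5 in 156 (14.4%), so neither gene was found in most members at this depth.

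Surface and transport genes were also among those with the highest ratios. Tie1/2, a receptor tyrosine kinase whose vertebrate relatives act in blood vessels, was at 336, 244, 181, 178 and 109.8 CPM in members and at 1.76 to 4.35 CPM in other cells, a log2 ratio of 5.95 ± 0.30 (adjusted p = 9.06e-09). Msp130r4 belongs to the Msp130 family of surface proteins best known from skeletogenic cells, and was at 659.8, 398, 419, 317 and 123 CPM in members against 3.96 to 9.16 CPM in other cells (log2 5.49 ± 0.36, adjusted p = 8.52e-08). Gat was at 678, 386, 518, 365 and 242 CPM in members and at 4.71 to 10.1 CPM in other cells (log2 5.74 ± 0.27, adjusted p = 8.25e-09). Slc29a3L, an equilibrative nucleoside transporter, was at 56.0 to 12.8 CPM in members, with 51 of its 61 UMIs there (log2 6.50 ± 0.60, adjusted p = 2.15e-06). Its level in other cells was at most 0.753 CPM, so its ratio rests on few counts there. Sstr2L_1, a somatostatin receptor-like gene, and Lrrtm2, a gene with leucine-rich repeats, had log2 ratios of 5.56 ± 0.35 and 5.30 ± 0.50. The 15 genes were taken among those with at least 30 UMIs in members, the symbol of a characterised gene and a higher level in 5 of 5 libraries.

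**Figure D3:**
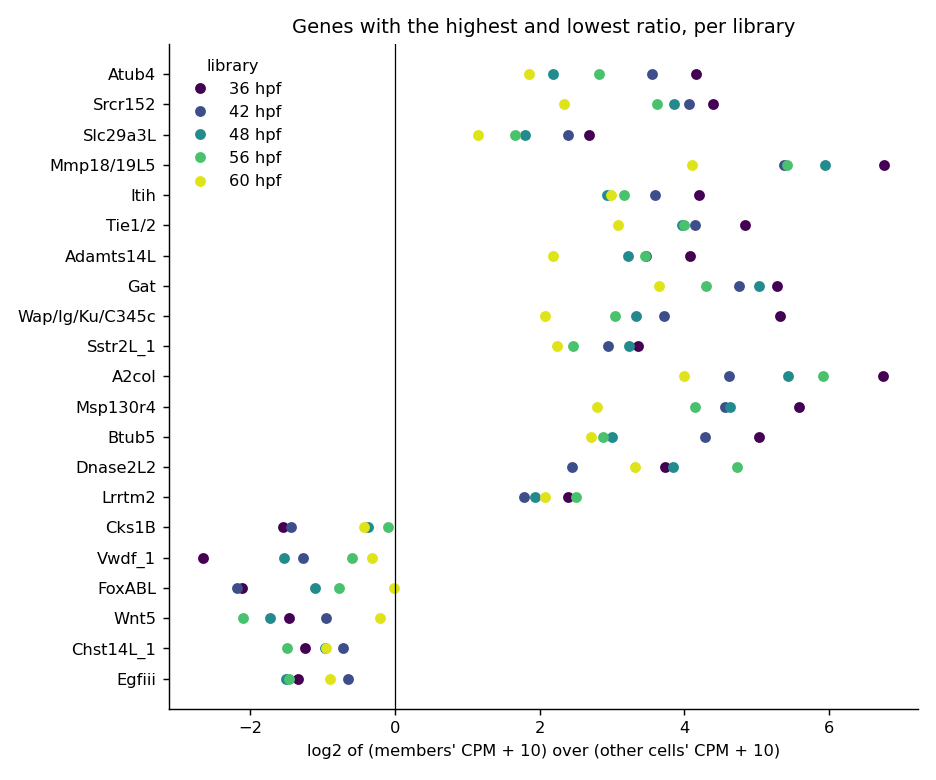
Log2 of (members' CPM + 10) over (other cells' CPM + 10) (x axis) in each library (points, coloured by age) for the 15 genes with the highest and the 6 with the lowest fitted ratio (y axis) among called genes with at least 30 UMIs in members and the symbol of a characterised gene. The added 10 CPM shrinks ratios of weakly expressed genes, and the points of the first 15 genes all lie to the right of 0.

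Genes of blood-type mesoderm regulators were higher more often than tested genes as a whole. Of 41 tested regulators of the list, 16 were higher and 1 was lower, 39.0% and 2.44% against 6.65% and 2.32% over all genes. The list's median log2 ratio was 0.31, beside -0.07 for all genes. The 4 markers of the rule are not in these counts. The called regulators were CebpaL, Erg, Ets1/2, FoxC, GataC, Gatae, Hhex, Jun, Klf3/8/12, Lmo2, Maf, Mitf, Nfe2, Prox1, Runt1 and Tel, which were higher, and Myb, which was lower on 24 UMIs in members. All 17 are DNA-binding factors except Lmo2, an adaptor that binds Scl and GATA factors in vertebrate blood.

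Regulators with the highest ratios were Gatae, Erg, Maf and Hhex, all with few UMIs per cell. Hhex, a homeobox gene of vertebrate blood and endoderm, was at 398, 338, 82.8, 187 and 114 CPM in members and at 17.4, 41.5, 27.9, 33.4 and 11.8 CPM in other cells (log2 3.02 ± 0.29, adjusted p = 3.09e-06). Maf, a bZIP factor of vertebrate macrophages, was at 124, 73.8, 82.8, 28.8 and 12.0 CPM in members and at 2.41 to 14.0 CPM in other cells (log2 3.37 ± 0.39, adjusted p = 2.02e-05). GataC, the relative of vertebrate GATA1/2/3, was at 124, 85.2, 46.6, 9.61 and 6.77 CPM in members and at 4.22, 14.6, 8.89, 5.02 and 2.96 CPM in other cells (log2 2.57 ± 0.44, adjusted p = 0.000929). A UMI of GataC was found in only 37 members (3.43%). At 36 hpf its 20 UMIs in members came from 5 of 94 cells, with 7 in 1 cell. Gatae, the relative of GATA4/5/6, was at 68.5, 25.6, 15.5, 33.6 and 21.0 CPM in members and held 58 of its 94 UMIs there (log2 4.88 ± 0.50, adjusted p = 5.64e-06). Its level in other cells was 0.362 to 1.76 CPM, so the ratio of Gatae rests on few counts there. The values of Maf and GataC in members and in other cells overlapped between libraries.

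Ese, the ETS factor that marks the same oral mesoderm in feeding larvae, did not pass. It was at 43.6, 59.6, 72.5, 28.8 and 45.1 CPM in members and at 28.1, 36.1, 57.1, 49.2 and 62.2 CPM in other cells, with members higher in 3 of 5 libraries (log2 0.02 ± 0.23, adjusted p = 0.992). Lmo2 was at 274, 71.0, 20.7, 0 and 3.76 CPM in members and at 13.9, 16.5, 6.71, 7.53 and 3.61 CPM in other cells (log2 2.08 ± 0.54, adjusted p = 0.0237). At 56 hpf members had no UMI of Lmo2, which allows a level of up to 14.4 CPM. The call on Lmo2 was lost without the 36, 42 or 48 hpf library, and without the 36 hpf library its log2 ratio was 1.12 (adjusted p = 0.204). With DESeq2 it was 1.33 (adjusted p = 0.409).

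Immune receptor genes were counted over a broad list of scavenger receptor, NOD-like receptor, C-type lectin, Toll-like, LDL receptor-related and growth factor receptor families, which includes Tie1/2. Of 147 tested members of the list, 31 were higher (21.1%) and 4 were lower (2.72%), with a median log2 ratio of 0.22. Copies of these families are similar in sequence, so reads could be split among them and single copies are uncertain. Srcr152, with scavenger receptor cysteine-rich domains, was at 218, 168, 135, 125 and 44.4 CPM in members and had 205 of its 228 UMIs there (log2 7.49 ± 0.37, adjusted p = 9.06e-09). In other cells it was at 0 to 1.00 CPM, so its ratio rests on few counts there. Srcr231 had 42 of 68 UMIs in members (log2 4.79 ± 0.51, adjusted p = 9.40e-06). Clect/Tm_5, a C-type lectin gene, was at 68.5, 31.2, 72.5, 43.2 and 35.3 CPM in members and at 0.845 to 3.76 CPM in other cells (log2 4.21 ± 0.36, adjusted p = 9.88e-07).

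The receptor with the most UMIs in members was Srcr177, named here after its values were seen. It was at 6891, 4379, 5089, 4872 and 2936 CPM in members and at 84.2, 246, 211, 392 and 548 CPM in other cells (log2 4.16 ± 0.38, adjusted p = 1.69e-06). A UMI of it was found in 926 of 1080 members (85.7%) and in 4686 of 25660 other cells (18.3%), so it was detected in most members although the rule did not use it. Members with 1 UMI of each marker seen had 953 CPM and the remaining members 4709 CPM. The NOD-like receptor genes Nlr54, Nlr132 and Nlr131, also named after their values were seen, were higher, with log2 ratios of 4.14, 4.56 and 2.99 on 41, 23 and 30 UMIs in members. In the opposite direction, Lrp12 and Lrp2L2, of the LDL receptor-related family, had log2 ratios of -1.10 ± 0.28 (adjusted p = 0.0222) and -0.67 ± 0.19 (adjusted p = 0.0374). Both calls were lost without the 42 hpf or the 48 hpf library, that on Lrp2L2 also without the 36 hpf or the 56 hpf library, and that on Lrp12 also with cells thinned to 500 UMIs (adjusted p = 0.413).

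Immune effector genes moved in both directions. Of 38 tested, 12 were higher (31.6%) and 3 were lower (7.89%), with a median log2 ratio of 0.09. A2ml1L, an alpha-2-macroglobulin-like protease inhibitor gene, was at 442, 289.7, 269, 231 and 97.0 CPM in members and at 7.97 to 13.8 CPM in other cells (log2 4.45 ± 0.28, adjusted p = 4.73e-08). Lyz, a lysozyme gene, was at 106, 79.5, 41.4, 57.7 and 16.5 CPM in members and at 3.45 to 10.3 CPM in other cells (log2 2.94 ± 0.45, adjusted p = 0.000361). Timp2d, a tissue inhibitor of metalloproteinases, was at 37.3, 71.0, 139.8, 33.6 and 21.0 CPM in members (log2 3.61 ± 0.43, adjusted p = 2.55e-05), but 23 of its 25 UMIs at 42 hpf lay in 1 cell. Strongylocin2, an antimicrobial peptide gene of sea urchin coelomocytes, had a log2 ratio of 2.19 on 132 UMIs in members.

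The abundant effector MacpfD.3, with a perforin-type domain, was lower in members. It was at 4469, 4981, 11814, 12646 and 12452 CPM in members and at 15681, 11594, 16581, 20481 and 15452 CPM in other cells (log2 -0.94 ± 0.17, adjusted p = 0.00135). A UMI of it was found in 69.5% of members and 73.8% of other cells, and free RNA was not removed from either. The summed level of the list was lower in members in 5 of 5 libraries, and MacpfD.3 made up most of that sum in other cells. C3-2, a complement C3 gene, was at 62.2 to 164 CPM in members and at 122 to 200.5 CPM in other cells (log2 -0.57 ± 0.17, adjusted p = 0.0468). That call was lost in 4 of the 5 fits that left out a library.

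Signal transduction and phagocytic genes were higher in part. Of 42 tested signal transduction genes, 5 were higher (11.9%) and none was lower, with a median log2 ratio of 0.24. Syk/Zap70, a kinase that acts below immune receptors in vertebrates, was at 68.5, 42.6, 51.8, 76.9 and 27.8 CPM in members and at 2.17 to 5.09 CPM in other cells (log2 3.66 ± 0.35, adjusted p = 2.78e-06). Sarmr6 and Sarmr14, of the SARM family of TIR adaptors, had log2 ratios of 5.19 ± 0.58 (adjusted p = 1.43e-05) and 2.69 ± 0.35 (adjusted p = 6.30e-05). Dok, a docking protein, was at 56.0 to 25.6 CPM in members (log2 0.90 ± 0.27, adjusted p = 0.0483), a call lost in 4 of the 5 fits that left out a library.

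Of 49 tested phagosome and lysosome genes, 12 were higher (24.5%) and none was lower, and the list's median log2 ratio of 0.47 was the highest of the 13 lists. Its summed level was 2960 to 4002 CPM in members and 1675 to 2508 CPM in other cells. Asah1, the acid ceramidase gene, was at 467, 352, 450.4, 509 and 284 CPM in members and at 39.9, 50.5, 62.0, 109 and 103 CPM in other cells (log2 2.51 ± 0.23, adjusted p = 1.67e-06), and was found in 424 members (39.3%) and 2348 other cells (9.15%). The cathepsin genes Cts11, Cts1 and Cts2 had log2 ratios of 5.11 ± 0.44 (adjusted p = 9.91e-07), 2.29 ± 0.30 (adjusted p = 6.86e-05) and 2.10 (adjusted p = 2.34e-05). Of the vacuolar proton pump genes, Atp6v0b, Atp6v1a2, Atp6v1d, Atp6v1f and Atp6v1g3 were higher, by log2 ratios of 0.87 to 2.12. Dnase2L2, a lysosomal nuclease gene among the 15 highest, was at 168, 56.8, 192, 322 and 147 CPM in members and at 2.29 to 5.65 CPM in other cells (log2 5.36 ± 0.29, adjusted p = 1.17e-08).

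**Figure D4:**
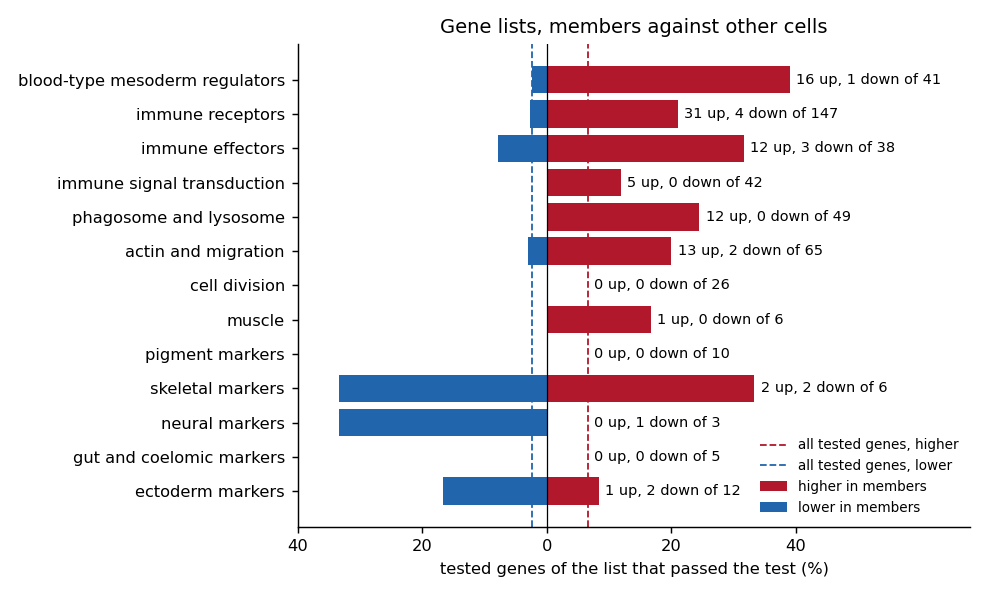
Share of tested genes of each list that were higher (right) or lower (left) in members, in percent (x axis), for 13 lists (y axis). Dashed lines give the shares over all 10111 tested genes, 6.65% higher and 2.32% lower, and the largest share higher is that of the blood-type mesoderm regulators (39.0%).

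Of 65 tested actin and migration genes, 13 were higher, a larger share than the 6.65% over all genes. Another 2 were lower (3.08%), close to the 2.32% over all genes. The list's median log2 ratio was 0.12. The higher genes included Arp2 and 3 other Arp2/3 complex genes (Arp2/3cs2, Arp2/3cs3 and Arp2/3cs4), which nucleate branched actin, with log2 ratios of 0.61 to 1.11. Cdc42se2 and RhoBTB, of small GTPase signalling, had log2 ratios of 1.55 ± 0.21 (adjusted p = 0.000102) and 1.83 ± 0.39 (adjusted p = 0.00692). Actg1, an actin gene, and Gsn_1, a gelsolin gene, were lower, with log2 ratios of -0.90 ± 0.21 (adjusted p = 0.0136) and -0.43 ± 0.12 (adjusted p = 0.0389). Both of these last calls were lost without the 42 hpf library and without the 48 hpf library, and that on Gsn_1 also without the 36 hpf or the 56 hpf library.

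Lists of other cells and of division stand beside shares of 6.65% higher and 2.32% lower over all genes. None of 26 cell division genes passed in either direction, with a median log2 ratio of -0.34, and their summed level was lower in members in 5 of 5 libraries (910 to 1600 CPM, against 949 to 2862 CPM in other cells). None of 10 pigment markers passed, but at 36 hpf their summed level was 4395 CPM in members and 2101 CPM in other cells, and 12 of 94 members there held 2 pigment markers. None of 5 gut and coelomic markers passed. Of 6 muscle genes, MlckL, a myosin light chain kinase-like gene, was higher (log2 1.77 ± 0.25, adjusted p = 0.000192). Among 3 neural markers Secrtag, a secretagogin gene, was lower (log2 -0.75 ± 0.22, adjusted p = 0.0419), a call lost in 4 of the 5 fits that left out a library. Detection went the other way, with Secrtag found in 11.1% of members and 5.67% of other cells over all libraries. At least 2 neural markers were held by 17.0% of members at 56 hpf and 15.7% at 60 hpf, against 8.15% and 9.16% of other cells. Members were deeper than other cells at both ages. Among 12 ectoderm markers Egfi and Msx were lower (16.7% of the list), with log2 ratios of -0.73 ± 0.15 (adjusted p = 0.00408) and -0.81 ± 0.18 (adjusted p = 0.00786), and Hox7 was higher by 0.50 ± 0.14 (adjusted p = 0.0415), a call lost in each fit that left out a library.

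Skeletal markers split within the list. Of 6 tested, Msp130r4 and Msp130r5 were higher, and the matrix genes P16 and Sm37 were lower on 4 and 16 UMIs in members. Msp130r5 was at 68.5, 19.9, 20.7, 14.4 and 8.27 CPM in members and at 0.256 to 2.59 CPM in other cells (log2 4.18 ± 0.72, adjusted p = 0.00109). At least 2 of the skeletal markers Alx1, Msp130r2, Sm50 and Sm37 were found in 0 of 94, 0 of 140, 0 of 99 and 0 of 141 members at 36 to 56 hpf, which allows up to 3.19%, 2.14%, 3.03% and 2.13%, and in 3 of 606 at 60 hpf. Cells with an Alx1 UMI numbered 163, of which 93 came from the 42 hpf library, so their pooled levels weigh that age most. Pooled over libraries, these cells were at 2128 CPM of A2col, 958 of Scl, 188 of Lmo2, 166 of Maf and 163 of Hhex. They were at 84.1 CPM of Mmp18/19L5 and 5.49 of Srcr152. The regulators and the collagen were thus found in both classes. No test was made between them.

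Differences in the lower direction were mostly small. The lowest fitted ratios belonged to genes with almost no UMIs in members, and 4 called genes were at least 4-fold lower. Gpr103, Timp4b, HER_48011.t1 and P16, named after their values were seen, had log2 ratios of -3.05, -2.63, -2.60 and -2.23 on 5, 3, 2 and 4 UMIs in members. Among genes with at least 30 UMIs in members and the symbol of a characterised gene, a limit that itself leaves out genes at low levels in members, the 6 lowest were Egfiii, Chst14L_1, Wnt5, FoxABL, Vwdf_1 and Cks1B, with fitted ratios of 0.419 to 0.459. Egfiii, which encodes a fibropellin of the outer matrix, was at 37.3, 76.7, 31.1, 57.7 and 47.4 CPM in members and at 110.3, 127, 107, 177 and 97.5 CPM in other cells (log2 -1.26 ± 0.20, adjusted p = 0.000546). Chst14L_1, a sulfotransferase of glycan chains, was at 56.0, 65.3, 41.4, 43.2 and 33.1 CPM in members and at 146, 115, 90.9, 141 and 73.8 CPM in other cells (log2 -1.23 ± 0.19, adjusted p = 0.000415). Wnt5, a Wnt ligand, was at 9.61 to 19.9 CPM in members up to 56 hpf and at 70.7 CPM at 60 hpf, against 47.7 to 83.6 CPM in other cells (log2 -1.15 ± 0.31, adjusted p = 0.0307). FoxABL, Vwdf_1 and Cks1B, a gene of the cell cycle, lay at log2 -1.14 ± 0.29, -1.14 ± 0.32 and -1.12 ± 0.29. FoxABL was at 37.3 CPM in members and 196 CPM in other cells at 36 hpf, but at 219 and 221 CPM at 60 hpf. Vwdf_1 was at 0 and 53.0 CPM at 36 hpf and at 38.3 and 50.3 CPM at 60 hpf. Of the 6 genes, only these 2 had a ratio that rose with the order of ages (edgeR interaction term, adjusted p = 7.99e-06 and 0.0364). The calls on Wnt5, FoxABL, Vwdf_1 and Cks1B were each lost without the 42 hpf library and without the 48 hpf library. Those on Wnt5, FoxABL and Cks1B were also lost without the 36 hpf library, and that on Wnt5 without the 56 hpf library.

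Scl divided the members without a test, since it is part of the rule. The 271 members with an Scl UMI were compared with the 809 without one within each library. The split also followed the number of markers. Of the 271, 152 held Scl, Astacin4 and the HER_40156.t1 gene without Irf4, while 800 of the 809 held only the pair of the HER_40156.t1 gene and Astacin4. Scl and the number of markers were therefore not told apart. Mmp18/19L5 was at 2756, 1065, 1346, 1387 and 751 CPM with Scl and at 1806, 724, 533, 1024 and 317 CPM without it. A2col was at 7501, 6019, 3449, 6259 and 2641 CPM with Scl and at 4162, 2470, 1699, 2087 and 1022 CPM without it. Levels were higher with Scl in 5 of 5 libraries for these genes and for Atub4, Srcr152, Itih, Tie1/2, Gat, Hhex, GataC, A2ml1L and Srcr177. For Atub4 at 36 hpf the values were close, at 175 CPM with Scl and 173 CPM without it. All of these genes were named for high levels in members, and the share over all genes was not counted. Dnase2L2 was higher with Scl in 3 of 5 and Lyz in 2 of 5. Members with Scl were above the signature limit in 86.0%, 80.6%, 80.8%, 78.1% and 56.4% in order of age, and members without it in 72.7%, 57.7%, 64.4%, 44.0% and 35.0%.

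The comparison between ages asked whether genes changed with the order of ages within members, and whether the ratio of members to other cells did. Both slopes were fitted over 5 libraries and leave 3 residual degrees of freedom, so they measure the scatter of single libraries around a line and no age has a replicate. Of 3469 genes tested within members, 395 rose (11.4%) and 277 fell (7.99%) at an edgeR adjusted p under 0.05. Of 10111 genes, the ratio of members to other cells rose for 249 (2.46%) and fell for 326 (3.22%). The ratio fell for 254 of the 672 genes that were higher in members, and rose for 1. It rose for 93 of the 235 lower genes, and fell for none. Without the 36 hpf library the ratio rose for 52 and fell for 117 genes, without the 56 hpf library for 424 and 216, and without the 60 hpf library for 74 and 89. Within members, 173 rose and 157 fell without the 36 hpf library, 84 and 48 without the 60 hpf library, and 220 rose without the 42 hpf library. With every cell thinned to 500 UMIs, an alternative chosen after seeing the data, it rose for 207 and fell for 97, which turns the balance around. The calls that moved a ratio towards 1 were thus 254 of 672 higher and 93 of 235 lower genes, and most genes of both groups did not pass. Members above the signature limit were 79.8% at 36 hpf and 38.6% at 60 hpf, and the part of members below that limit in these slopes was not tested.

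Genes that fell within members included regulators and matrix genes. Tsp1_1, with thrombospondin domains, was at 828, 335, 202, 67.3 and 28.6 CPM in members in order of age and at 4.90 to 12.9 CPM in other cells. Its slope was -1.17 ± 0.12 log2 per step of age (adjusted p = 1.19e-06). In members with at least 2 UMIs of each of 2 markers it was at 1291, 572, 399.8, 99.6 and 53.0 CPM, so the fall was also present there. Mox, a homeobox gene, was at 305, 293, 51.8, 86.5 and 12.8 CPM in members (slope -1.09 ± 0.16, adjusted p = 0.000152), and Lmo2 had a slope of -1.61 ± 0.17 (adjusted p = 1.99e-06). Of the 44 UMIs of Lmo2 in members at 36 hpf, the cell with the most held 8, and 14 of 94 members had one. GataC had a slope of -1.06 ± 0.17 (adjusted p = 0.000339) and Hhex of -0.44 ± 0.12 (adjusted p = 0.0146). The level of GataC at 36 hpf rested on 20 UMIs in 5 of 94 members.

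Several genes that led the contrast also fell within members. A2col had a slope of -0.47 ± 0.14 (adjusted p = 0.0184) and Mmp18/19L5 of -0.47 ± 0.13 (adjusted p = 0.0143). In members with at least 2 UMIs of each of 2 markers, A2col was at 11024, 7837, 4113, 5816 and 2845 CPM and Mmp18/19L5 at 4378, 1688, 1913, 2241 and 1017 CPM. Both were lowest at 60 hpf in these stricter members too. Timp2 had a slope of -1.10 ± 0.16 (adjusted p = 0.000154), but its UMIs came from few cells. At 36 hpf 5 of 94 members held its 32 UMIs, with 12 in 1 cell. At 42 hpf 6 of 140 members held 28 UMIs, with 9 in 1 cell. By list, 5 of 26 regulators fell within members and none rose, 8 of 15 effectors fell and 2 rose, and 5 of 45 receptors fell and 3 rose, beside 7.99% falling and 11.4% rising over all tested genes. In each of the other 10 lists 0 to 3 genes rose and 0 to 3 fell, out of 1 to 42 tested. Among these, 3 of 6 pigment markers fell and none rose, and 2 of 3 neural markers rose and none fell. A fall within members was thus not limited to the regulator and effector lists. Sult1c_2, a sulfotransferase, had a slope of -1.12 ± 0.17 (adjusted p = 0.000197), but was at 1384 CPM in pigment marker cells, at 0 CPM at 36 hpf in the stricter members, and fell in other cells from 271 to 26.1 CPM as well.

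Other genes of the contrast did not pass within members. Dnase2L2 had a slope of 0.20 ± 0.15 (adjusted p = 0.367), Asah1 of -0.08 ± 0.12 (adjusted p = 0.678) and Srcr177 of -0.22 ± 0.13 (adjusted p = 0.267) within members. Cyp2L62, a cytochrome P450 gene named after its values were seen, rose within members from 137 and 88.0 CPM at 36 and 42 hpf to 368, 1129 and 580.4 CPM (slope 0.82 ± 0.17, adjusted p = 0.00226). In the stricter members Cyp2L62 was at 265, 183, 899.6, 2082 and 1252 CPM. It rose in other cells too, from 1.02 to 57.2 CPM, and its ratio fell (slope -1.08 ± 0.12, adjusted p = 2.77e-08). Members held 350 cells (32.4%) with a UMI of Cyp2L62, and other cells 617 (2.40%).

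**Figure D5:**
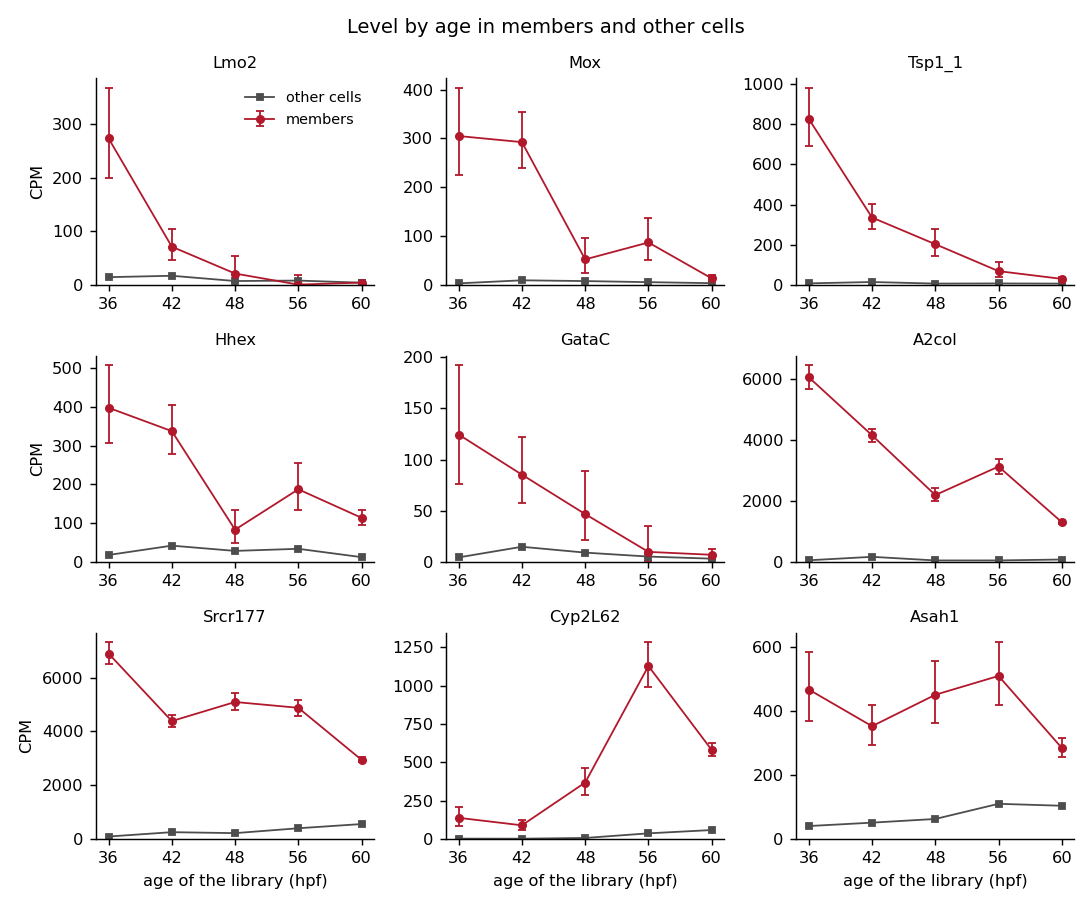
Level in CPM (y axis) by age of the library in hpf (x axis) of 9 genes in members (circles, with 95% Poisson intervals that cover counting error only) and in other cells (squares). Tsp1_1 ran from 828 to 28.6 CPM in members while Cyp2L62 ran from 137 CPM to a peak of 1129 CPM at 56 hpf.

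The genes with the steepest rises within members were mostly shared with other cells, and several came from single cells. Dynlc2-4c, a dynein light chain gene, was at 12.4, 14.2, 207, 985 and 437 CPM in members and at 21.3, 27.3, 122, 729.9 and 498 CPM in other cells (slope within members 1.55 ± 0.25, adjusted p = 0.000422). Of its 581 UMIs in members at 60 hpf, 338 lay in 1 cell. Astacin2 had 85 of its 90 UMIs at 60 hpf in 1 member (slope 1.28 ± 0.33, adjusted p = 0.00994). Prps1_1, a gene of nucleotide synthesis, was at 18.7, 65.3, 36.2, 332 and 493 CPM in members and at 42.9, 44.2, 81.1, 339 and 557 CPM in other cells (slope 1.16 ± 0.15, adjusted p = 3.35e-05). Neurmdnr, a neuromedin receptor-like gene, and Wdr86 had slopes of 1.24 ± 0.25 (adjusted p = 0.00233) and 1.37 ± 0.22 (adjusted p = 0.000363), and both were higher at 60 than at 36 hpf in other cells as well. The model sums UMIs over cells and does not see how many cells they came from.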

How the data were processed

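Single-cell libraries of whole larvae were processed by the authors with Cell Ranger, version 3.1.0 per the submitters' processing notes and file headers, and the deposited matrices hold raw UMI counts of the barcodes called as cells, with no normalization. They cover 38707 features, of which 31716 carry a symbol, pooled by symbol to 20623 genes. No genome annotation was used here, so positions and sequences are not given.

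UMI counts were summed over members and over other cells of each library and tested with edgeR 4.0.16 (quasi-likelihood, TMM factors, filterByExpr, library as block, R 4.3.3). Slopes with the order of ages used the interaction of class and order, or members alone. DESeq2 1.42.0 was an alternative. Shares carry 95% Clopper-Pearson and levels 95% Poisson intervals, which cover counting error only, since UMI totals of 160655 to 1330181 per library in members set the precision. Thinning to 500 UMIs left out 520 cells, 9 of them members. Python 3.11.15, numpy 2.4.6, scipy 1.17.1 and pandas 2.3.3 were used. The signature used CPM plus 10 and genes with at least 20 UMIs.

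The tests were checked on simulated counts, drawn with the same fixed spread for every gene. The genes to change were taken among those above a minimum mean count in members. UMIs gathered in single cells, as seen for some genes here, were not simulated, so the recovered counts hold for that setting only. For members against other cells, 74 of 100 genes changed by a log2 of 1 and 98 of 100 changed by 2 were recovered among 9969 genes. For the slope of the ratio the values were 35 and 93 of 100 among 9930 genes, and for the slope within members 83 and 95 of 100 among 3233 genes. The low-count filter of the last test was changed after its first simulated run.

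Named genes were those with the symbol of a characterised gene, at least 30 UMIs in members and 1 direction in 5 of 5 libraries: the 15 highest and 6 lowest called ratios, up to 4 higher and 2 lower called genes of each list, and the 5 steepest called slopes each way. Called regulators and other genes given with 1 value were added from the lists. Some genes of the actin and migration list are not reported here. Members, lists and tests were chosen with earlier results of these data known, and several name patterns of the lists that took unrelated genes were narrowed after the values were seen. Replicate numbers pair nothing here, since each age had 1 library. The alternatives were other size factors, filters on counts and genes, thinning, stricter or looser marker rules, leaving out each library, no library block and hours in place of order.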

Additional observations from a re-analysis of the deposited data

Results flagged for a closer look

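The ratio of members to other cells changed with the order of ages for 575 genes, rising for 249 and falling for 326 (edgeR interaction term, adjusted p under 0.05). Among the 15 named genes with the highest ratio it fell for 8, and among the 6 named genes with the lowest it rose for 2.

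The named genes with the steepest rising ratios had few UMIs in members. Opsin3.1, an opsin gene, had a slope of 1.65 log2 per step and was at 0, 0, 0, 9.61 and 22.6 CPM in members in order of age, on 32 UMIs. Slfnl1 (slope 1.24) was at 0, 0, 10.4, 9.61 and 28.6 CPM and Egfib_5 (slope 1.15) at 0, 0, 5.18, 38.4 and 24.1 CPM. Wdr86 (slope 0.82) was at 0, 2.84, 51.8, 38.4 and 139 CPM and Rad17 (slope 0.80) at 6.22, 11.4, 5.18, 24.0 and 37.6 CPM. In other cells these 5 genes were between 6.64 and 122 CPM at every age.

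Of the steepest falling ratios, EhH2b_94 (slope -1.42) and Srcr142 (slope -1.38) rested on single cells at 36 hpf. There EhH2b_94, an early histone gene, had 57 of its 61 UMIs in 1 of 94 members, and Srcr142 had 16 of 21 UMIs in 1 member. Msp130r5 (slope -1.31) was found in 11 of 94 members at 36 hpf, with 1 UMI in each. Slc16a14L_1, a monocarboxylate transporter-like gene (slope -1.22), was at 93.4, 79.5, 20.7, 33.6 and 24.8 CPM in members and at 0.483 to 5.74 CPM in other cells. Epdmnrp2, an ependymin-related gene (slope -1.21), was at 99.6, 65.3, 5.18, 14.4 and 10.5 CPM in members and at 0.511 to 2.76 CPM in other cells. Of the 10 slopes in these 2 paragraphs, 9 lost their call without the 36 hpf library and 7 without the 60 hpf library. With every cell thinned to 500 UMIs, an alternative chosen after seeing the data, 6 lost it and the other 4 were not tested, so none kept it.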

How the results depend on the processing

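Each age had 1 library, so no setting could be checked within an age. Members and other cells of a library were paired through the library block, without which 530 genes were higher and 10 lower. Ages could not be paired, since replicate numbers mark no shared animal or batch. No share difference and no call on a named gene changed its sign, but the balances of higher to lower genes and of rising to falling ratios turned under some alternatives. Alternatives named in the next sentences as chosen after seeing the data are the requirement of 2 UMIs of each of 2 markers, thinning in the slope tests and the low-count minimum in every library. Genes higher in members numbered 422 with cells thinned to 500 UMIs, with 328 lower, and 473 to 780 when a library was left out. Genes lower in members numbered 708 without a filter on low counts, 1383 with at least 3 markers, 135 in cells with over 500 genes, 1011 with at least 2 UMIs of each of 2 markers, and 49 to 532 when a library was left out. The split of 672 higher to 235 lower was 671 to 1383 with at least 3 markers and 853 to 1011 with 2 UMIs of each of 2 markers. Ratios that rose or fell with order numbered 55 and 176 with DESeq2, and ranged over 52 to 424 and 89 to 341 when a library was left out. Rising ratios outnumbered falling ones at 207 to 97 after thinning, 222 to 218 with 2 UMIs of each of 2 markers and 424 to 216 without the 56 hpf library. Within members, genes that rose and fell numbered 213 and 151 with DESeq2, 194 and 134 with the minimum in every library, 220 and 106 with 2 UMIs of each of 2 markers, and 92 and 68 after thinning. Without a filter 686 rose. Leaving out a library gave 84 to 549 and 48 to 294. The member share was higher at 60 than at 36 hpf by 4.99 percentage points by the rule, by 1.35 after thinning, 7.88 in cells with over 500 genes, 0.112 with at least 3 markers, 0.144 without the HER_40156.t1 gene, 0.189 without Astacin4 and 1.38 with 2 UMIs of each of 2 markers. Members above the signature limit were 47.2% after thinning. The cause of these differences was not tested. Depth limits weakly expressed regulators, since a gene at 0 in members is compatible with up to 2.26 to 18.7 CPM.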
